A study of Homo sapiens with 6 samples.

Results

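The respiratory chain subunits encoded in the nucleus were followed in 5637 cells, an established human bladder carcinoma line, with RAD51C lowered. The subunit genes were taken by symbol alone, without use of any measured value: NDUFA, NDUFB, NDUFC, NDUFS and NDUFV genes with a number, COX4 to COX8, UQCR, ATP5F, ATP5M and ATP5P genes, CYC1, and SDHA to SDHD. This gave 85 of the 23024 genes listed, 36 for complex I, 4 for complex II, 10 for complex III, 17 for complex IV and 18 for complex V, and 6 hyphenated symbols (antisense and divergent transcripts) were left out. RNA was sequenced from 3 libraries labelled NC, with the genotype WT, and from 3 libraries labelled sh-RAD51C, with the genotype RAD51C knockdown, all from transfected cells of the same line. The labels do not say what NC stands for, whether numbers 1 to 3 mark separate cultures or different hairpins, or how long the knockdown lasted, so p-values speak only of library-to-library spread, which can be technical.

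Background on the proteins is as follows. Complexes I and II pass electrons from NADH and succinate to ubiquinone, complex III passes them to cytochrome c, and complex IV (cytochrome c oxidase) passes them to oxygen. Complexes I, III and IV pump protons, and complex V, the ATP synthase, uses the gradient to make ATP. All complexes but II are mosaics of nuclear and mitochondrial gene products, and the promoters of many of the nuclear genes hold sites for the factors NRF1, GABP (an ETS factor) and YY1.

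The targeted gene was measured first. RAD51C, a homologous recombination gene, stood at 14.7, 13.2 and 13.6 FPKM (reads scaled by gene length and library total) in NC 1, 2 and 3, and at 3.51, 3.09 and 2.95 FPKM in sh-RAD51C 1, 2 and 3. The sh-RAD51C mean was 23.0% of the NC mean. On the scale of log2(FPKM + 1) the difference was -1.83 ± 0.064 (SE, limma adjusted p = 7.16e-09). A two-sided exact permutation of the 6 libraries gave p = 0.1, the smallest that 3 against 3 allow.

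Depth, inferred from the FPKM steps, ran from 36068282 to 37560184 reads in NC and from 37104318 to 38079825 reads in sh-RAD51C. Of 10 urothelial epithelial markers, 9 were above 1 FPKM on average. The 10 summed to 2906 to 2997 FPKM in NC and 2664 to 2767 FPKM in sh-RAD51C. At a limma adjusted p under 0.05, 4 were lower in sh-RAD51C (KRT5, KRT19, TP63 and CDH1). Another 5 were higher (KRT7, KRT8, KRT18, EPCAM and GATA3), and 49.4% of all genes tested passed in either direction. Endothelial markers summed to at most 0.461 FPKM, striated muscle markers to at most 0.860 FPKM, blood cell markers to 2.37 to 3.67 FPKM with the leukocyte gene PTPRC near 0, and fibroblast markers to 6.64 to 10.5 FPKM, nearly all COL1A1 with COL1A2 near 0. Within the knockdown group, sh-RAD51C 1 stood apart for the subunit genes. It was the highest of the 3 sh-RAD51C libraries in 77 of 80 subunit genes tested (96.2%), against 33.0% of all genes tested and 67.9% of the 563 tested genes shorter than 1000 bases. The subunit genes are short (median inferred length 1306 bases against 3974 for all genes tested). Counts of subunit genes, and of the partner and regulator lists, are therefore also given without this library.

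Most subunit genes did not pass the test, and the changes of those that did were small. Of the 85, 80 averaged 1 FPKM or more over the 6 libraries and entered the test, and 15 were lower, 4 were higher and 61 were not called in sh-RAD51C (limma on log2(FPKM + 1), called at an adjusted p under 0.05). That is 23.8% of them called, against a background of 49.4% of all 11152 genes tested (26.2% lower and 23.2% higher). Among the 1763 genes tested with a mean between 27.7 and 124 FPKM, the lower and upper quartiles of the subunit genes, 59.6% were called. No subunit gene moved by more than 0.5 on the log2 scale, as 954 genes (8.55%) of all tested did. The median size of the change, without its sign, was 0.079 for the subunit genes and 0.147 for all genes tested, with a median SE of 0.048 and 0.057. In 19 of the 80 (13 lower, 6 higher) the 3 libraries of one group lay wholly above those of the other, which held for 58.4% of all genes tested. Whether the subunit genes differ as a set from other genes was not tested.

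The changes leaned downward. The median log2 fold change was -0.05 for the 80 subunit genes and -0.01 for all genes tested. Of the subunit genes, 50 had values below and 30 above 0. Of all 11152 genes tested, 5804 had values below and 5348 above 0. Without sh-RAD51C 1 the subunit median was -0.08 against -0.01 for all genes, and without sh-RAD51C 3 both medians were -0.02. Together the 85 genes took 0.834% ± 0.00880 of inferred reads in NC and 0.810% ± 0.0392 in sh-RAD51C (SD, n = 3), with 0.855%, 0.795% and 0.782% in sh-RAD51C 1, 2 and 3, so that the groups overlapped. Fewer transcripts per cell and fewer cells that carry them cannot be told apart in bulk RNA. Without sh-RAD51C 1 the counts became 30 lower and 3 higher. That is 41.2% of the 80 called, against 5485 of 11177 genes tested in the same fit. Without sh-RAD51C 2 the subunit counts were 6 and 5, and without sh-RAD51C 3 they were 7 and 8. Without NC 1, 2 or 3 they were 8 and 1, 9 and 3, and 14 and 1. In these last fits 11.2% to 18.8% of the 80 were called, against 4513 of 11134 to 5084 of 11173 genes tested.

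**Figure D1:**
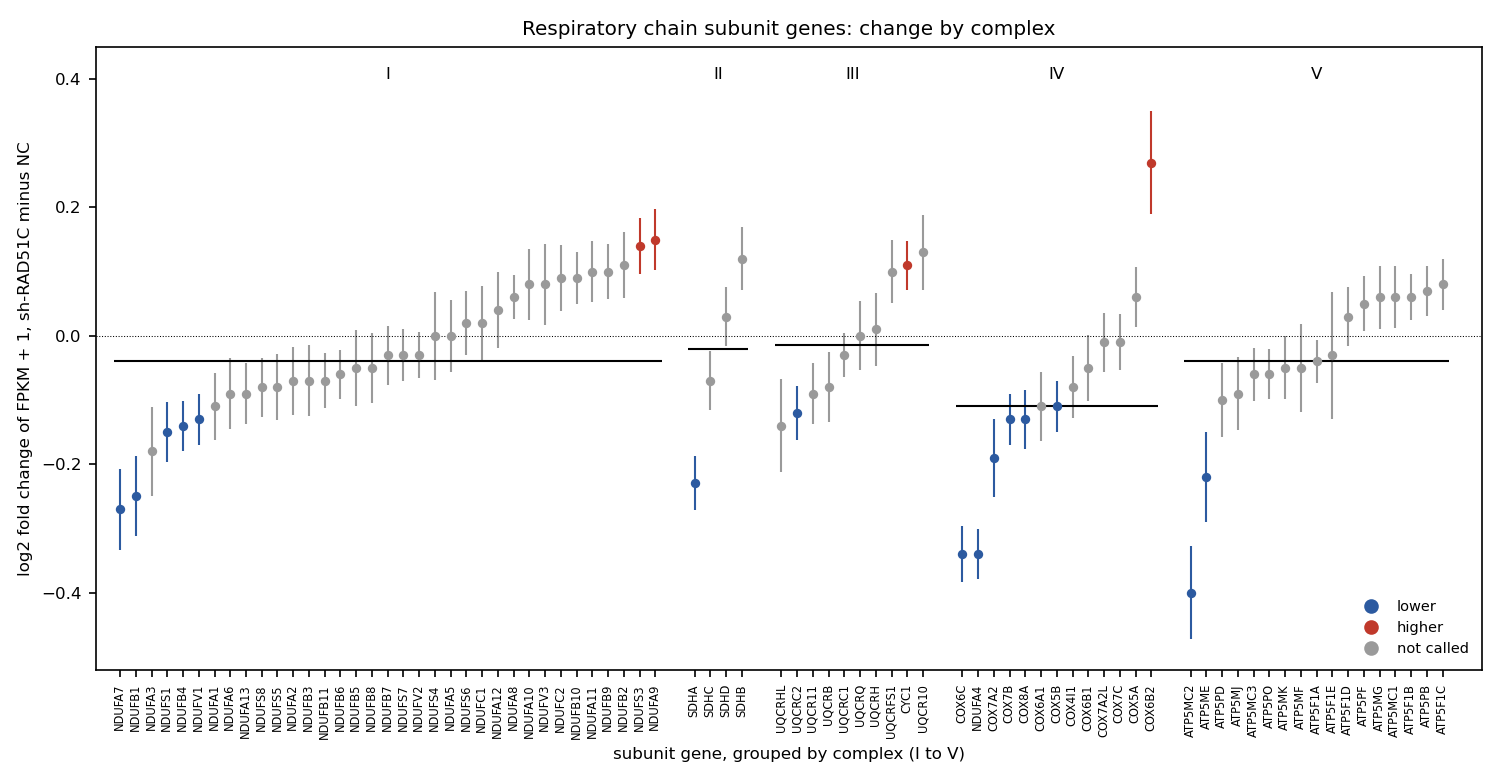
Log2 fold change of FPKM + 1 (sh-RAD51C minus NC, vertical axis) of the subunit genes tested (1 of the 80 not drawn), grouped by complex I to V and ordered within each; points are limma estimates, bars are ± 1 SE, and horizontal lines are complex medians. The median of complex IV sits at -0.11 and those of the other complexes between -0.04 and -0.02.

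Among the complexes, IV had the lowest median. Its 13 tested genes had 6 lower and 1 higher (53.8% called, near the background of 49.4%) and a median of -0.11, where complex IV here counts NDUFA4 and NDUFA4L2, now placed in that complex despite their names, and COX7A2L, a supercomplex factor. Complex I had 5 lower and 2 higher of 36 (median -0.04), complex II 1 lower of 4 (-0.02), complex III 1 lower and 1 higher of 10 (-0.02), and complex V 2 lower of 17 (-0.04). The difference between complexes was not tested. The summed level of complex IV genes was 2222, 2190 and 2132 FPKM in NC 1, 2 and 3 and 2176, 1973 and 1933 FPKM in sh-RAD51C 1, 2 and 3, a change of -7.1% in the mean. The sh-RAD51C 1 value lay within the NC range and the other pair lay below it. The sums for complexes I, II, III and V changed by -2.3%, 0.9%, -0.4% and -1.6%, with overlapping groups. Without sh-RAD51C 1 the lower and higher counts were 13 and 2 for complex I, 1 and 0 for II, 3 and 0 for III, 9 and 1 for IV and 4 and 0 for V. Without sh-RAD51C 3 they were 3 and 5, 1 and 1, 0 and 2, 2 and 0, and 1 and 0, and without sh-RAD51C 2 they were 2 and 3, 1 and 0, 0 and 1, 2 and 1, and 1 and 0. The number of complex IV genes called lower ranged from 2 (without NC 1, without sh-RAD51C 2, and without sh-RAD51C 3) to 9 (without sh-RAD51C 1).

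Cytochrome c oxidase subunit genes are described next. COX6C, a small membrane subunit of complex IV (ENSG00000164919.10, chromosome 8), stood at 201, 199 and 193 FPKM in NC 1, 2 and 3 and at 166, 149 and 154 FPKM in sh-RAD51C 1, 2 and 3. Every sh-RAD51C library was below every NC library, with means of 197 ± 4.20 FPKM in NC and 156 ± 8.67 FPKM in sh-RAD51C (SD, n = 3). The change was -0.34 ± 0.043 (log2, SE; limma adjusted p = 7.10e-05). COX6C has 17 pseudogenes by name in GENCODE, and reads shared with them could not be separated. NDUFA4, a complex IV subunit (ENSG00000189043.9, GRCh38 chromosome 7 from 10931951 to 10940256, minus strand), stood at 64.6, 63.8 and 62.3 FPKM in NC and at 52.3, 49.4 and 48.3 FPKM in sh-RAD51C. These groups did not overlap either, and the log2 fold change was -0.34 ± 0.039 (limma adjusted p = 3.12e-05), the smallest adjusted p among the 80 subunit genes.

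The other complex IV genes that fell did so by smaller amounts. COX7A2, the widely expressed form of subunit 7A, stood at 81.2, 82.2 and 75.1 FPKM in NC and 76.4, 69.1 and 63.3 FPKM in sh-RAD51C (log2 fold change -0.19, limma adjusted p = 0.0226). Its groups overlapped, because sh-RAD51C 1 was above NC 3. COX7B, a small membrane subunit, went from 54.8, 53.2 and 52.8 to 51.4, 47.9 and 47.2 FPKM (-0.13, limma adjusted p = 0.0180), and COX5B, on the matrix side, from 110, 107 and 105 to 105, 98.0 and 96.4 FPKM (-0.11, limma adjusted p = 0.0433), both with every sh-RAD51C library below every NC library. COX8A, the widely expressed form of subunit 8, went from 311, 322 and 295 to 299, 274 and 275 FPKM (-0.13, limma adjusted p = 0.0380), with overlap. Each of these calls depended on single libraries. COX7A2 was lost without NC 1, NC 2, sh-RAD51C 2 or sh-RAD51C 3 (limma adjusted p from 0.0558 to 0.0885), as was COX8A (0.103 to 0.165), which was also lost with the length trend removed (-0.07, 0.0588) and with median-of-ratios scaling (-0.12, 0.0828), COX7B without NC 1, sh-RAD51C 2 or sh-RAD51C 3 (0.0602 to 0.0750), and COX5B without any library but sh-RAD51C 1 (0.0549 to 0.154). COX8A shares 34.5% of its exonic bases with another same-strand GENCODE gene that is not among the genes listed.

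Other abundant complex IV genes, COX6A1, COX6B1 and COX4I1, did not pass the test. COX6A1, the widely expressed form of subunit 6A, stood at 474, 452 and 449 FPKM in NC and 463, 411 and 399 FPKM in sh-RAD51C (-0.11, limma adjusted p = 0.103), and COX6B1 at 320, 315 and 303 against 328, 295 and 285 FPKM (-0.05, limma adjusted p = 0.448). COX4I1, needed for assembly of the holoenzyme, stood at 193, 195 and 194 FPKM in NC and 199, 177 and 174 FPKM in sh-RAD51C (-0.08, limma adjusted p = 0.170). In all 3 genes sh-RAD51C 1 was level with or above at least 1 NC library, and the other sh-RAD51C libraries were below all of NC. Without sh-RAD51C 1 each was called lower: COX6A1 at -0.18 (limma adjusted p = 0.00264), COX6B1 at -0.11 (0.0295) and COX4I1 at -0.14 (0.00304). Of the remaining genes, COX5A (0.06), COX7C (-0.01) and COX7A2L (-0.01) were not called.

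Isoforms known from other tissues were at or near 0. COX4I2 and COX8C had a value above 0 in 1 library each (0.0292 FPKM in sh-RAD51C 3 and 0.0497 FPKM in sh-RAD51C 2), COX7A1, the heart and muscle form of subunit 7A, in NC 3 alone (0.0783 FPKM), and the complex V gene ATP5MGL reached at most 0.0347 FPKM. NDUFA4L2, a hypoxia-responsive paralog of NDUFA4, stood at 0.243, 0.297 and 0.212 FPKM in NC and 0.0209, 0.107 and 0.189 FPKM in sh-RAD51C. Each of these 5 genes had a mean under 1 FPKM and was not tested. COX6B2, a testis form of subunit 6B, was the 1 complex IV gene called higher, from 1.74, 1.61 and 1.50 to 2.17, 1.86 and 2.45 FPKM (0.27 ± 0.080, limma adjusted p = 0.0164), with no overlap. It was a small fraction of its pair: COX6B2 made up 0.515% of the summed COX6B1 and COX6B2 level in NC and 0.712% in sh-RAD51C. Its call was lost without NC 3 (limma adjusted p = 0.0588) or sh-RAD51C 3 (0.0669). Of the exonic bases of COX6B2, 30.9% are shared with another same-strand GENCODE gene that is not among the genes listed.

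**Figure D2:**
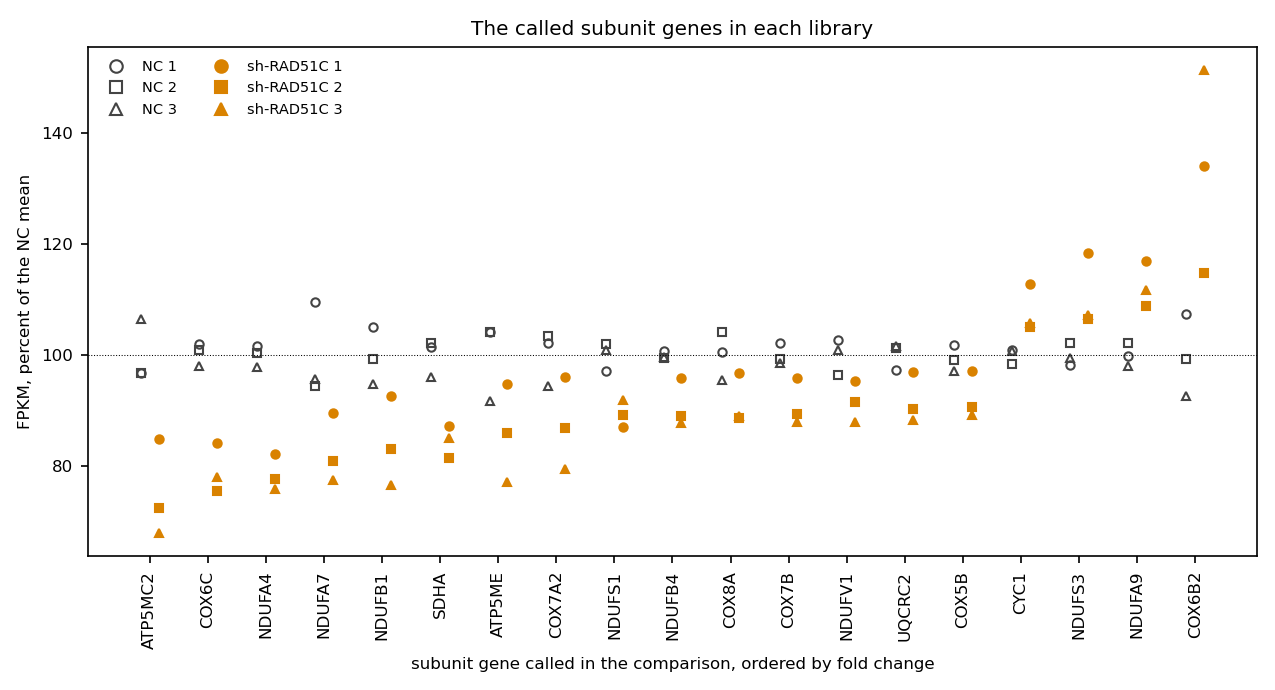
FPKM of the 19 called subunit genes in each library as a percent of the NC mean of that gene (vertical axis), ordered by fold change; open symbols are NC 1 to 3 and filled symbols sh-RAD51C 1 to 3. The sh-RAD51C libraries of COX6C, NDUFA4, SDHA and ATP5MC2 lie below all NC libraries, and sh-RAD51C 1 is the highest of its group for most genes.

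Complex I genes rarely passed the test, and those that did went both ways. NDUFA7, an accessory subunit of the matrix arm (ENSG00000267855.5, GRCh38 chromosome 19 from 8308768 to 8321396, minus strand), stood at 64.1, 55.3 and 56.0 FPKM in NC and 52.4, 47.4 and 45.4 FPKM in sh-RAD51C, with no overlap. Its log2 fold change was -0.27 ± 0.063 (limma adjusted p = 0.00460), and 32.3% of its exonic bases are shared with another same-strand GENCODE gene that is not among the genes listed. NDUFB1, an accessory membrane subunit (ENSG00000183648.9, chromosome 14 from 92116122 to 92121917, minus strand), stood at 144, 136 and 130 FPKM in NC and 127, 114 and 105 FPKM in sh-RAD51C, also with no overlap (-0.25 ± 0.062, limma adjusted p = 0.00633). Both calls held with each library left out in turn and were lost without the filter on low values (limma adjusted p = 0.0534 and 0.0653). NDUFB4, another membrane accessory subunit with 12 pseudogenes by name, went from 70.7, 69.8 and 70.0 to 67.3, 62.5 and 61.6 FPKM (-0.14, limma adjusted p = 0.0147) with no overlap, and was lost without NC 1, sh-RAD51C 2 or sh-RAD51C 3 (0.0523 to 0.0531).

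Called genes of the catalytic core went both ways. NDUFV1, which binds FMN and oxidises NADH, went from 94.5, 88.7 and 92.8 FPKM in NC to 87.7, 84.2 and 80.9 FPKM in sh-RAD51C (-0.13, limma adjusted p = 0.0231), and NDUFS1, which carries iron-sulfur clusters, from 9.12, 9.57 and 9.46 to 8.17, 8.37 and 8.63 FPKM (-0.15, limma adjusted p = 0.0252). NDUFS3, a core subunit beside them in the matrix arm, rose from 70.1, 73.0 and 71.1 to 84.5, 76.1 and 76.6 FPKM (0.14, limma adjusted p = 0.0187). None of the 3 had overlapping groups. NDUFS7, NDUFS8 and NDUFV2 had log2 fold changes from -0.08 to -0.03 and were not called. The NDUFV1 call was lost without NC 1, NC 3, sh-RAD51C 2 or sh-RAD51C 3 (0.0556 to 0.0977), that of NDUFS1 without NC 2, NC 3 or sh-RAD51C 2 (0.0597 to 0.0973) and with the length trend removed (-0.09, limma adjusted p = 0.0928), and that of NDUFS3 without NC 1 (0.0697). NDUFS3 shares 19.6% of its exonic bases with PTPMT1 on the same strand, so reads there could belong to either gene.

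Of 7 core genes, 2 were lower and 1 was higher (42.9% called), with a median of -0.08, and of 29 accessory genes of complex I, 3 were lower and 1 was higher (13.8% called), with a median of -0.03, against 49.4% called of all genes tested. Without sh-RAD51C 1 these counts were 4 and 1 for the core and 9 and 1 for the accessory genes. That is 71.4% and 34.5% called, against 5485 of 11177 genes tested. Without sh-RAD51C 3 the counts were 1 and 1, and 2 and 4. That is 28.6% and 20.7% called, against 5084 of 11173 genes tested. The higher accessory gene was NDUFA9, which stabilises the joint between the arms, at 8.53, 8.73 and 8.39 FPKM in NC and, with a mean of 9.62 FPKM, at 9.31 and 9.55 FPKM in sh-RAD51C 2 and 3 and above both in sh-RAD51C 1 (0.15, limma adjusted p = 0.0206), without overlap. Its call was lost without NC 1 (0.0582) or NC 3 (0.0665). The most abundant complex I genes were not called: NDUFB9 stood at 247, 240 and 239 against 274, 258 and 246 FPKM (0.10, limma adjusted p = 0.0796), and NDUFS5 at 223, 217 and 211 against 224, 197 and 196 FPKM (-0.08, limma adjusted p = 0.217). NDUFB9 was higher and NDUFS5 lower on average, and both had overlapping groups. NDUFS5 was called lower without sh-RAD51C 1 (-0.14, limma adjusted p = 0.00630).

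In complex II the flavoprotein subunit fell and the others were not called. SDHA, which oxidises succinate and also serves the citric acid cycle (ENSG00000073578.16, GRCh38 chromosome 5 from 218241 to 256700, plus strand), stood at 27.9, 28.1 and 26.4 FPKM in NC and 24.0, 22.4 and 23.4 FPKM in sh-RAD51C. The groups did not overlap, and the log2 fold change was -0.23 ± 0.042 (limma adjusted p = 9.52e-04). Its partner SDHB, the iron-sulfur subunit, stood at 57.0, 58.8 and 60.4 FPKM in NC and 68.9, 62.4 and 60.4 FPKM in sh-RAD51C (0.12 ± 0.049, limma adjusted p = 0.0662). SDHB was called higher without sh-RAD51C 3 (0.16, limma adjusted p = 0.0286). The membrane anchors SDHC (-0.07) and SDHD (0.03) were not called, although every sh-RAD51C library of SDHC, from 8.78 to 9.21 FPKM, lay below the NC libraries, from 9.42 to 9.60 FPKM.

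In complex III, 1 gene fell and 1 rose. UQCRC2, a core subunit, went from 68.0, 70.8 and 71.0 FPKM to 67.8, 63.2 and 61.7 FPKM (-0.12, limma adjusted p = 0.0306), and CYC1, cytochrome c1, which hands electrons to cytochrome c, rose from 71.6, 69.8 and 71.4 to 80.0, 74.5 and 75.0 FPKM (0.11, limma adjusted p = 0.0337). Neither had overlapping groups. The UQCRC2 call was lost without NC 2, NC 3, sh-RAD51C 2 or sh-RAD51C 3 (0.0883 to 0.106), and the CYC1 call without NC 1, NC 2, NC 3 or sh-RAD51C 1 (0.0649 to 0.123) and with quantile normalization (0.06, limma adjusted p = 0.116). UQCRC1, the other core subunit, stood at 123, 125 and 127 against 125, 120 and 121 FPKM (-0.03, limma adjusted p = 0.442), and the hinge protein gene UQCRH at 231, 232 and 208 against 242, 223 and 210 FPKM (0.01, limma adjusted p = 0.933). UQCRHL, a near-identical copy of UQCRH, was listed at 18.5 to 23.8 FPKM and was not called (-0.14); how reads were split between these copies is not given.

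In complex V none of the 5 genes of the F1 part (ATP5F1A to ATP5F1E, the catalytic head with the central stalk) was called. Of the 12 other genes, of the peripheral stalk and membrane part, 2 were lower. Of all genes tested, 49.4% were called and 26.2% were lower. The difference between these parts was not tested. Without sh-RAD51C 1, none of the 5 F1 genes was called and 4 of the 12 others were lower (33.3%), where 5485 of 11177 genes tested were called. Without NC 1, NC 2, sh-RAD51C 2 or sh-RAD51C 3, 1 of the 12 was lower. The F1 genes ran from -0.04 to 0.08. ATP5F1B, the catalytic beta subunit, stood at 265, 272 and 282 FPKM in NC and 288, 285 and 283 FPKM in sh-RAD51C (0.06, limma adjusted p = 0.163), with every sh-RAD51C library narrowly above NC. ATP5F1E, the epsilon subunit, was listed at only 0.846 to 1.29 FPKM over an inferred length of 3610 bases, and 23.2% of its GENCODE exonic bases overlap TUBB1 on the opposite strand, so its level is uncertain. ATP5PO, which joins the peripheral stalk to the head, stood at 253, 266 and 260 against 260, 245 and 245 FPKM (-0.06, limma adjusted p = 0.257), with overlap.

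ATP5MC2 had the lowest fold change of the 80 subunit genes. It is 1 of 3 genes, with ATP5MC1 and ATP5MC3, that encode the same mature c subunit of the proton-conducting ring with different import sequences. ATP5MC2 (ENSG00000135390.18, GRCh38 chromosome 12 from 53632726 to 53677408, minus strand) stood at 23.9, 23.9 and 26.3 FPKM in NC and at 21.0, 17.9 and 16.8 FPKM in sh-RAD51C. The groups did not overlap, and the log2 fold change was -0.40 ± 0.072 (limma adjusted p = 8.29e-04). ATP5MC1 stood at 159, 169 and 161 against 181, 171 and 158 FPKM (0.06, limma adjusted p = 0.322), and ATP5MC3 at 47.0, 47.2 and 46.8 against 47.7, 43.4 and 43.9 FPKM (-0.06, limma adjusted p = 0.227). The share of ATP5MC2 in the summed level of the 3 genes went from 10.5% ± 0.639 to 7.92% ± 0.428 (SD, n = 3), while the sum itself was 235 ± 4.98 and 234 ± 15.5 FPKM. ATP5ME, subunit e of the membrane part, went from 178, 178 and 157 to 162, 147 and 132 FPKM (-0.22, limma adjusted p = 0.0245), with overlap. Its call was lost without NC 1, NC 2, sh-RAD51C 2 or sh-RAD51C 3 (0.0536 to 0.0989), and 61.6% of its exonic bases overlap MYL5 on the opposite strand.

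**Figure D3:**
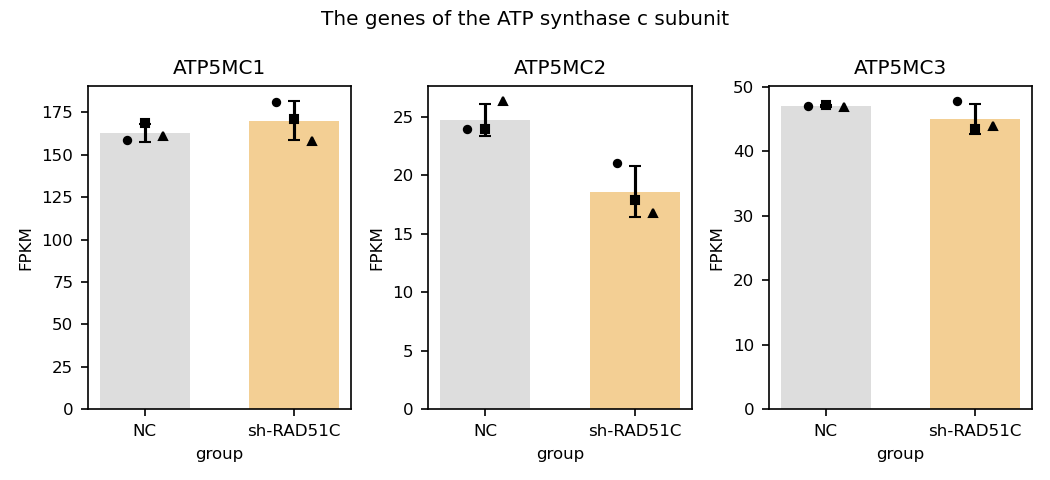
FPKM (vertical axes, each starting at 0 with its own scale) of the 3 genes of the ATP synthase c subunit in NC and sh-RAD51C; bars are means, error bars ± 1 SD, and circles, squares and triangles are libraries 1, 2 and 3. ATP5MC2 runs from 23.9 to 26.3 FPKM in NC and from 16.8 to 21.0 FPKM in sh-RAD51C, and the groups of ATP5MC1 and ATP5MC3 overlap.

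In all, 4 of the 19 called subunit genes, NDUFA4, COX6C, SDHA and ATP5MC2, stayed called under each of the 15 alternatives run, and their largest limma adjusted p was 0.00148, 0.00377, 0.00739 and 0.0218. NDUFA7 and NDUFB1 also held in each of the 6 fits without 1 library. Without the filter on low values ATP5ME, COX5B, COX6B2, COX7A2, COX7B, COX8A, CYC1, NDUFA7, NDUFB1, NDUFS3, NDUFV1 and UQCRC2 lost their calls (limma adjusted p from 0.0516 to 0.145), and without the mean-variance trend ATP5ME, COX5B, COX7A2, COX8A, CYC1, NDUFV1 and UQCRC2 did (0.0521 to 0.0981). Median-of-ratios scaling ended the calls of COX5B (limma adjusted p = 0.0943), COX8A (0.0828) and UQCRC2 (0.0556), and quantile normalization those of CYC1 (0.116) and NDUFS3 (0.0567). Removal of the length trend ended those of COX8A (0.0588) and NDUFS1 (0.0928), and voom that of COX5B (0.0761). No called subunit gene changed sign under any of the 15. Some levels depend on the gene length used by the authors. Inferred lengths of 11774 bases for NDUFS1, 13442 for SDHC, 8710 for UQCRB and 8356 for NDUFA9 give low FPKM values per read. This does not touch FPKM ratios between libraries but slightly shrinks changes of log2(FPKM + 1). With a pseudocount of 0.1 in place of 1, NDUFA9 went from 0.15 to 0.17 and NDUFS1 from -0.15 to -0.16.

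**Figure D4:**
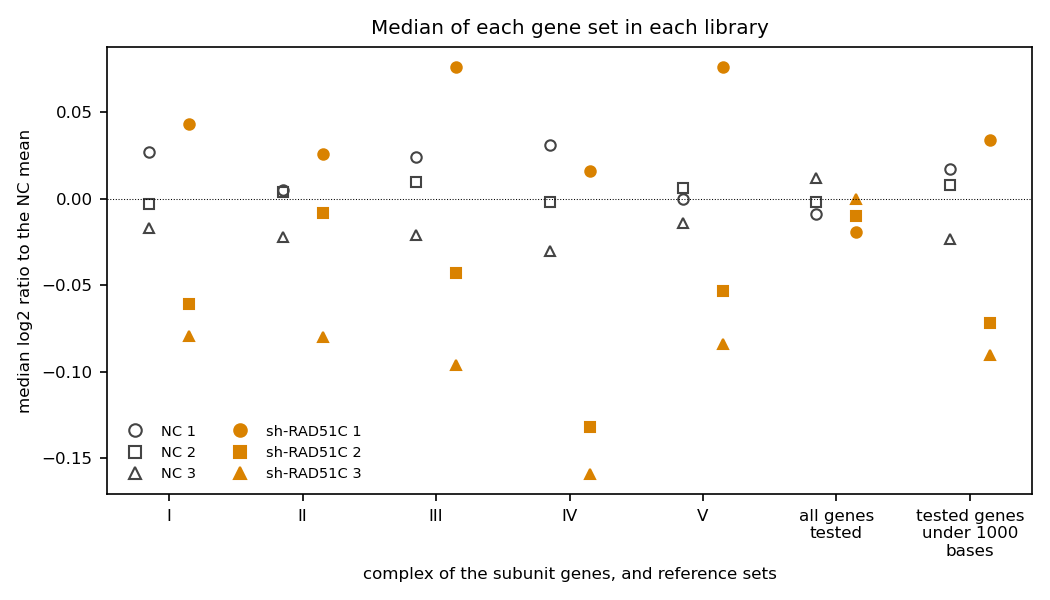
Median over genes of the log2 ratio of each library to the NC mean (vertical axis) for the subunit genes of complexes I to V, for all genes tested and for tested genes under 1000 bases; open symbols are NC and filled symbols sh-RAD51C libraries. Among the subunit genes sh-RAD51C 1 lies above the other sh-RAD51C libraries in every complex, as in the genes under 1000 bases, and all genes tested lie near 0.

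The order of the sh-RAD51C libraries was nearly the same in each complex. The median log2 ratio of the 80 subunit genes to the NC mean was 0.04, -0.06 and -0.09 in sh-RAD51C 1, 2 and 3, against 0.02, 0.00 and -0.02 in NC 1, 2 and 3. For complex IV the sh-RAD51C values were 0.02, -0.13 and -0.16. Length classes differed. For all tested genes under 1000 bases the sh-RAD51C values were 0.03, -0.07 and -0.09, and for the 32 subunit genes of that length 0.04, -0.08 and -0.11. For all tested genes of 1000 to 3000 bases they were 0.04, 0.00 and -0.01. For those of 3000 bases or more they were -0.05, -0.01 and 0.01. The 48 subunit genes of 1000 bases or more, which fall in both classes, had 0.04, -0.05 and -0.07. In those 48, sh-RAD51C 1 was the highest of its group in 93.8%. The share was 55.5% of all tested genes of 1000 to 3000 bases and 19.6% of those of 3000 bases or more. The 13 mitochondrially encoded genes held 6.15%, 6.10% and 5.96% of inferred reads in NC and 6.36%, 5.74% and 5.64% in sh-RAD51C 1, 2 and 3, the same order. Across the 80 subunit genes, Spearman's rho of the fold change with gene length was 0.14, a description over genes that share 6 libraries.

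Promoter sequence was compared between subunit genes. RefSeq windows from 250 bases before to 50 bases after the annotated start (GRCh38.p14) were matched for 68 of the 85 genes. Searched on both strands, the NRF1 core GCGCNTGC was in a window of 41.2% of these, 25.4% of 9031 tested genes and 14.0% of all 27305 genes with a window. The YY1 motif AANATGGC was in 38.2%, 13.4% and 7.97%, and the ETS core CCGGAAG in 30.9%, 23.6% and 12.2%. Among genes called lower and genes not called, the shares were 35.7% of 14 and 40.8% of 49 for NRF1, 35.7% and 38.8% for YY1, and 28.6% and 32.7% for ETS. The window of NDUFA4 held none of the 3 motifs. The sites below are shown because SDHA and ATP5MC2 are the called genes with NRF1 cores whose calls held in every alternative, and COX7B and NDUFA9 show a YY1 match in a gene that fell and a gene that rose; capitals mark the motif, and each line reads along the strand of its gene.
SDHA, chr5:218145-218174, plus strand: gtccgctttgcGCAGGCGCggcgcccccac
SDHA, chr5:218194-218223, plus strand: tggcatggtgcGCAGGCGCgatgtccccca
SDHA, chr5:218243-218272, plus strand: cggcgtggtgcGCAGGCGCggtatcccccc
SDHA, chr5:218292-218321, plus strand: cggtgtggtgcGCAGGCGCagtctgcgcag
ATP5MC2, chr12:53676105-53676134, minus strand: gcccgggtcacGCATGCGCtgagccttcct
ATP5MC2, chr12:53676370-53676399, minus strand: gtgtgacgactGCGCATGCtcggaaagggg
COX7B, chrX:77899449-77899478, plus strand: cccggctgaaaGCCATTTTgtttttcagct
NDUFA9, chr12:4649113-4649142, plus strand: gattgtgggaaAAGATGGCggctgccgcac
The 4 SDHA cores have the same letters, and each begins 49 bases after the one before. The ATP5MC2 cores lie in windows of different annotated starts. These are matches of letters, not measured binding.

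Partners of the subunits were counted from lists written by role. Of the 13 mitochondrially encoded subunit genes, ND5 was lower (1809, 1919 and 1737 against 1411, 1330 and 1318 FPKM, log2 fold change -0.43), ND2 was higher (3632, 3559 and 3616 against 5093, 4394 and 4440 FPKM, 0.36), and 11 were not called, with a median of -0.01. Without sh-RAD51C 1, 4 of them were lower and 1 higher, and without NC 1, sh-RAD51C 2 or sh-RAD51C 3, 1 was lower and 2 higher. With quantile normalization 1 was lower and 6 higher. With the length trend removed 4 were lower and 5 higher, and with voom on inferred reads 4 were lower and 3 higher. In the last 2 settings 5963 and 5663 of 11148 genes tested were called, so the number called among the 13 depended on the setting. Genes listed as assembly factors were counted over all complexes. These lists also hold the ATP synthase inhibitor gene ATP5IF1 and the mitochondrial RNA and translation factors LRPPRC and TACO1. Of 54 tested, 15 were higher and 5 lower (37.0% called, against 49.4% of all genes tested), with a median of 0.06. With each library left out, 12 to 14 were higher and 3 to 5 lower, with a median of 0.05 to 0.08, and the difference from the subunit genes was not tested. Without sh-RAD51C 1 they were 14 and 5. Among complex I factors 5 of 16 were higher and none lower (5 and 0 without sh-RAD51C 1), led by NDUFAF8 (0.30), NDUFAF2 (0.41) and NDUFAF4 (0.55). Among complex IV factors 8 of 23 were higher and 3 lower (7 and 3 without sh-RAD51C 1). There COA7 rose by 0.38 and COA4 by 0.25, while SURF1, which helps insert heme, fell from 24.7, 26.2 and 24.8 to 21.4, 20.9 and 20.1 FPKM (-0.27, limma adjusted p = 3.21e-04). In the remaining lists SDHAF4 and UQCC1 were lower (-0.34 and -0.12; SDHAF4 was lost without NC 2, 0.0542, and UQCC1 without NC 1, NC 3, sh-RAD51C 1 or sh-RAD51C 3, 0.0743 to 0.135), and BCS1L and TMEM70 were higher (0.28 each).

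Carriers and regulators included larger changes than any subunit gene. CYCS, cytochrome c, stood at 35.9, 35.7 and 35.6 FPKM in NC and 51.6, 48.8 and 49.4 FPKM in sh-RAD51C (0.47 ± 0.036, limma adjusted p = 1.58e-06), with no overlap. In its list of 16 carriers and subunits outside the symbol rule, with and without sh-RAD51C 1, 4 were higher and 4 lower (49.4% of all genes tested were called, 23.2% higher and 26.2% lower), PDSS1 of ubiquinone synthesis at 0.48 and the electron transfer flavoprotein gene ETFB at -0.28 among them. Of 11 tested regulators of respiratory chain transcription, 6 were higher and 2 lower (72.7% called, against 49.4% of all genes tested), with a median of 0.22. The higher genes were PPRC1, GABPB1 and the mitochondrial DNA factors TFAM, TFB2M, POLRMT and TWNK. The lower genes were ESRRA and YY1. With each library left out, 5 or 6 of the 11 were higher and at most 2 lower (6 and 1 without sh-RAD51C 1). None was lower without NC 2 or NC 3. PPRC1, a PGC-1 family coactivator, rose by 0.49, the mitochondrial transcription factor TFB2M by 0.43 and the mitochondrial RNA polymerase POLRMT by 0.26. NRF1 (-0.14, limma adjusted p = 0.119) and GABPA (-0.03, limma adjusted p = 0.603), named here with the other factors whose motifs were searched, were not called. GABPB1, the partner of GABPA, was higher (0.22, limma adjusted p = 0.0137; 0.0558 without NC 3), and YY1 was lower (-0.10, limma adjusted p = 0.0429). The YY1 call was lost in every fit without 1 library except that without sh-RAD51C 3 (0.0665 to 0.127). It was also lost with the length trend removed, median-of-ratios scaling, no mean-variance trend and a replicate block (limma adjusted p from 0.0525 to 0.0807). PPARGC1A was at most 0.0302 FPKM in every library. Of 9 supercomplex and cristae genes, 3 were higher and 2 lower (55.6% called), with APOO at -0.51, HIGD2A at -0.24 and CHCHD3 at 0.28. The higher and lower counts were 2 and 2 without sh-RAD51C 1, and 1 and 2 without NC 1 or NC 2.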

How the data were processed

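Total RNA of transfected 5637 cells was extracted with TRIzol and sequenced from VAHTS Universal V6 libraries, per the labels' protocols. The deposited values are FPKM, calculated by the authors, for 23024 symbols; per the submitters' processing notes, hg38 was used as build, with DESeq2 and R 3.2.0 named but given no role. Strandedness, annotation, counting tool and aligner were not given in the sources used here. Every column matched the title of 1 of the 6 libraries.

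FPKM values fell on steps fixed by gene length and library total, so read totals and gene lengths (for 11148 of 11152 genes kept) were inferred; intervals for single counts are not given. Within groups the reads of every pair of libraries differed beyond counting error (chi-square divided by degrees of freedom, 3.69 to 14.30), so none was treated as a repeat.

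Genes averaging 1 FPKM or more were compared on log2(FPKM + 1), which understates changes of low genes, with limma 3.58.1 (R 4.3.3; empirical Bayes with trend, no covariate, Benjamini-Hochberg over all genes kept), and called at an adjusted p under 0.05. The targeted gene also had an exact two-sided permutation test. The steps were tested on simulated data. Alternatives were a pseudocount of 0.1, no filter or a mean of at least 5 FPKM, median-of-ratios scaling, quantile normalization, no trend in limma, a replicate block, removal of the trend with length and each library left out; voom on inferred reads, and counts by complex part and context list under each setting, were chosen after seeing the data.

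The members, gene lists and tests were chosen with earlier results of these data known. Named were every called member, the 2 most abundant of each complex, tissue isoforms, members below the filter and at most 3 called genes of the smallest p per context list; any other gene was picked with its values in view. Gene positions come from GENCODE 29 (GRCh38), matched for all 85 members, and promoter windows from RefSeq (GRCh38.p14), 2 of them through a newer symbol. COX6A2 was not analysed here, and 1 member enters the counts but is not reported here by itself. Without a stated strand setting, overlapping genes are uncertain, which concerns 14 tested members that share at least 10% of exonic bases with another listed gene; 45 members have pseudogenes by name. Python 3.11.15, numpy 2.4.6, pandas 2.3.3, scipy 1.17.1 and matplotlib 3.10.9 were used.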

Additional observations from a re-analysis of the deposited data

How the results depend on the processing

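The count of subunit genes called lower, 15 in limma, was 6 with no filter on low values, 9 with no mean-variance trend and 27 with quantile normalization, and the count called higher, 4, was 11 with the length trend removed, 1 with no filter and 2 with quantile normalization. With each library left out in turn the lower count ran from 6 to 30 and the higher count from 1 to 8. The other settings kept these counts within 1.5 times. RAD51C stayed called, from -2.12 to -1.78. The median of complex IV ran from -0.14 to -0.07 and that of complex I from -0.07 to -0.01, while those of complexes II, III and V reached 0.01 without sh-RAD51C 3. The cause of these changes was not tested. Correlations of same-numbered deviations were 0.19, 0.026 and 0.091. NC 1 and NC 2 correlated best with the sh-RAD51C library of the same number, and NC 3 with sh-RAD51C 2 (0.11). With 3 libraries a group these values cannot decide whether replicate numbers pair the libraries. With a replicate block 20 subunit genes were lower and 6 higher (32.5% called), and 5569 of all 11152 genes tested were called. With 3 libraries a group and a median SE of 0.048, changes near 0.1 on the log2 scale lay at the edge of the test. At -0.11 COX5B was called and COX6A1 was not, so an uncalled gene is not shown to be unchanged.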
